A study of Mus musculus with 4 samples.

Results

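Nos2, Inhba, Ptgs2, Il6, Acod1, Slc7a11, Il12a and Thbs1 were described in the macrophage-, monocyte- and neutrophil-like leukocytes of a mouse pancreatic tumor model. The 8 genes were taken by symbol from the 32285 genes of the count table, as inflammatory macrophage effectors together with the activin subunit gene Inhba, and all 8 were present once. KPC tumors, grown from a mouse pancreatic cancer cell line, were subcutaneous in young adult male C57BL/6 mice, and live CD45+ cells were sorted from them. There were 4 groups, labeled Untreated, STING agonist, LTbR agonist, and STING and LTbR agonist. ADU-S100, a cyclic dinucleotide that activates the innate sensor STING, was injected into the tumor at the start of treatment only. An agonistic antibody to the lymphotoxin-β receptor (LTbR) was given systemically and repeatedly, and tumors were taken days after its last dose. Tumors of a group were pooled before sorting, so each group was 1 library and no value per animal exists. Single-cell sequencing was done more than once in the study, and the source of these 4 libraries among those runs is not stated.

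Macrophages that sense microbial products or cytokines switch on a set of enzymes and secreted proteins. Nos2 makes nitric oxide from arginine, Acod1 makes itaconate from an intermediate of the citric acid cycle, Ptgs2 (cyclooxygenase-2) commits arachidonic acid to prostaglandins, and Slc7a11 imports cystine, the precursor of glutathione. Il6 encodes interleukin-6, Il12a the p35 chain that IL-12 and IL-35 share, and Inhba the βA chain of activin A, a member of the TGF-β family. Thbs1 encodes thrombospondin-1, a matrix protein that binds CD36 and CD47 and activates latent TGF-β. In tumors, these products act on T cells, vessels and the matrix.

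Transcription factors of the NF-κB family are known activators of several of these genes, so the 250 bases before the start of each gene were searched for short sites on both strands. RefSeq promoter entries (GRCm38.p6) were at hand for 6 of the 8 members, Inhba, Ptgs2, Il6, Acod1, Slc7a11 and Il12a. The letters GGANNTTCC, an NF-κB-type site, occurred in the windows of 3 members, Il6, Acod1 and Il12a, and in 3.59% of all 32851 promoters. The stretches that hold them are shown because they are what these 3 members share in sequence. Capitals mark the matches and the start site is counted as the base after position -1.
Il6, chr5:30012864-30013104, plus strand: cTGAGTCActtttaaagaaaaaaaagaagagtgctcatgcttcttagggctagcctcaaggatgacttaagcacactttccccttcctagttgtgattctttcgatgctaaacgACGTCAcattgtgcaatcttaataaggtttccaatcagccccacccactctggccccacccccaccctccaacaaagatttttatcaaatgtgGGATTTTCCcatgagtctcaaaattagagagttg
Acod1, chr14:103046902-103046960, plus strand: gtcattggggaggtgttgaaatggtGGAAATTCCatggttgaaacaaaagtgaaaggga
Il12a, chr3:68690425-68690483, plus strand: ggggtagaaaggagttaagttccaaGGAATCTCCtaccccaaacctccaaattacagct
In the Il6 stretch the capitals are, in order, an AP-1-type site (TGANTCA, in 6.75% of promoters), a cyclic AMP element (TGACGT, read on the other strand, in 6.47%) and the NF-κB-type site at positions -43 to -35. The Acod1 match lies at -85 to -77, where both strands meet the pattern. The Il12a match lies on the other strand at -194 to -186, before the first of its 2 RefSeq starts. Of the other letters searched, TTCNNNGAA (STAT-type, 7.02% of promoters) occurred in Slc7a11 and ACGTG (hypoxia element, 16.6%) in Acod1. TATAAA (12.4%) occurred in Inhba and Acod1, and TGACNNNGC (antioxidant element, 10.2%) in no member. In Acod1 the TATAAA match lies at -28 to -23 and the ACGTG match at -18 to -14. Both are before the RefSeq start but after the GENCODE start of Acod1 given below. The hypoxia element shares the letters ACGT with the cyclic AMP element. A match is a run of letters only, and binding was not measured.

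By the GENCODE annotation of GRCm38, the genes lie on 7 chromosomes. Nos2 is at chr11:78920787-78960254, Inhba at chr13:16011851-16031621, Ptgs2 at chr1:150100031-150108227, Il6 at chr5:30013114-30019981, Acod1 at chr14:103046977-103056573 and Thbs1 at chr2:118111876-118127133, all on the plus strand. Slc7a11 (chr3:49892526-50443614, minus strand) and Il12a (chr3:68690644-68698547, plus strand) share chromosome 3.

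After the study's limits on genes and mitochondrial reads, 3748 to 7147 cells per library remained, with median depths of 5750 to 7094 unique molecular identifiers (UMIs, counted molecules) per cell. Of these cell barcodes, 246 occurred in more than 1 library. Clusters built without the 8 genes gave 3104 macrophage- or monocyte-like cells in Untreated, 1498 in STING agonist, 3007 in LTbR agonist and 1896 in STING and LTbR agonist, and 227, 304, 372 and 68 neutrophil-like cells in the same order. All 8 neutrophil markers, among them S100a8 and Cxcr2, were higher in the neutrophil-like cells than in the macrophage- or monocyte-like cells without overlap of the libraries. Of the 12 macrophage or monocyte markers, 11 stood above 50 CPM in all libraries of their own class and 9 were higher there without overlap. Levels are CPM, the UMIs of a gene over all UMIs of the cells summed, so they give a share of the RNA and not an amount per cell. Intervals in parentheses are exact, at 95%, and cover counting error alone. Since a group has 1 library, there is no replicate and no test, and a difference between libraries cannot be told apart from one between pools or preparations.

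Inhba, and Nos2 in all libraries but STING and LTbR agonist, stood at higher CPM in macrophage- or monocyte-like than in neutrophil-like cells. Acod1, Ptgs2, Slc7a11 and Thbs1 were higher in the neutrophil-like cells of every library. Acod1 reached 3477 CPM in the neutrophil-like cells of Untreated, 4817 in STING agonist, 3195 in LTbR agonist and 2949 in STING and LTbR agonist. In the macrophage- or monocyte-like cells its levels were 192, 209, 129 and 160 CPM in the same order, so the 2 classes did not overlap. Although neutrophil-like cells were 1.28% to 8.11% of the cells, they held 28.0% of all Acod1 UMIs in Untreated, 54.6% in STING agonist, 50.2% in LTbR agonist and 16.1% in STING and LTbR agonist.

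Ptgs2, too, was higher in neutrophil-like cells, at 2231 CPM in Untreated, 2094 in STING agonist, 1230 in LTbR agonist and 1804 in STING and LTbR agonist. Its macrophage- or monocyte-like levels were 442, 497, 362 and 282 CPM in that order. Neutrophil-like cells contributed 6.26% to 18.3% of its UMIs. Slc7a11 stood at 1339, 1216, 818 and 1363 CPM in neutrophil-like cells, against 254, 281, 294 and 273 CPM in macrophage- or monocyte-like cells. Thbs1 was at 1567, 1736, 958 and 916 CPM in neutrophil-like cells. In the 3 libraries other than LTbR agonist, Slc7a11 in neutrophil-like cells lay within 1216 to 1363 CPM. All of these neutrophil values come from small cells, with median depths of 1942 to 2392 UMIs, and in STING and LTbR agonist 10 cells carried 51.3% of the Acod1 UMIs, 53.7% of the Ptgs2 UMIs, 52.7% of the Slc7a11 UMIs, 69.2% of the Thbs1 UMIs and all of the Inhba UMIs.

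Inhba was present in both classes. The neutrophil-like levels were 258 CPM (221 to 299) in Untreated, 192 (164 to 222) in STING agonist, 154 (133 to 178) in LTbR agonist and 240 (175 to 321) in STING and LTbR agonist. All lay below the lowest macrophage- or monocyte-like level, 285 CPM (279 to 291) in Untreated, where the intervals of the 2 classes overlapped. Nos2 in neutrophil-like cells came from few cells, 6 of 227 in Untreated, 6 of 304 in STING agonist, 10 of 372 in LTbR agonist and 2 of 68 in STING and LTbR agonist, or 1.97% to 2.94%. The Nos2 levels there were 47.4, 22.3, 81.9 and 224 CPM in the same order. The last (161 to 302) stood above the macrophage- or monocyte-like 214 CPM (207 to 222), with overlapping intervals. Nos2 was also looked for in other classes. Its share in T-like cells, which should lack it, was 0.425% to 0.554% at median depths of 4287 to 5063 UMIs.

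Il6 was close to absent from neutrophil-like cells, with 5, 1, 3 and 0 UMIs in the 4 libraries. The exact interval for the 0 of 68 cells in STING and LTbR agonist reaches up to 19.6 CPM. In T-like cells 0.0693% to 0.425% had an Il6 UMI, and in neutrophil-like cells 0% to 1.32%. Il12a in dendritic-like cells was at 6.62 CPM in Untreated, 10.2 in STING agonist, 4.05 in LTbR agonist and 5.87 in STING and LTbR agonist. The B and plasma-like cells had 7.72, 12.6, 5.96 and 5.12 CPM, from 3, 1, 7 and 19 UMIs, so the ranges of these 2 classes overlapped. In every library the dendritic-like level lay above the macrophage- or monocyte-like level. IL-12 from dendritic cells is a known driver of type 1 T cell responses. In macrophage- or monocyte-like cells it was detected in 0.935% to 1.37% of cells, with 30 to 58 UMIs per library, and in T-like cells in at most 0.138%.

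**Figure D1:**
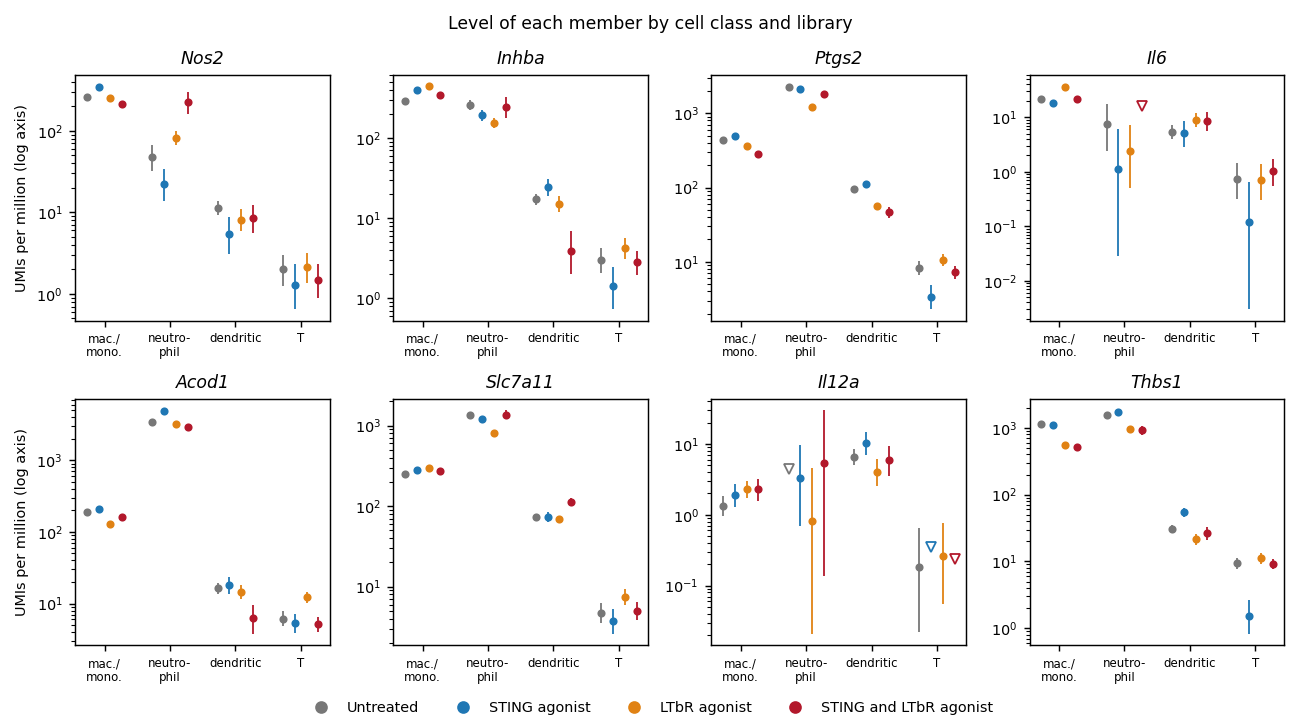
Level of each member in CPM (log axis) in macrophage- or monocyte-like (mac./mono.), neutrophil-like, dendritic-like and T-like cells. Each point is 1 library, bars are exact 95% Poisson intervals, and open triangles mark 0 UMIs, drawn at the level of 3 UMIs. For Acod1, Ptgs2 and Slc7a11 the 4 neutrophil-like points lie above the macrophage- or monocyte-like points, and for Il12a the dendritic-like points, from 4.05 to 10.2, lie above the macrophage- or monocyte-like points but overlap those of neutrophil-like cells.

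The macrophage- or monocyte-like cells were divided into 15 sub-clusters, 7 of which carried enough markers for a name, and the others are called by their 2 leading genes. The members took no part in the clustering, yet Inhba was among the 10 leading genes of the inflammatory macrophage-like cells, Acod1 among those of the Rsad2 Cmpk2 cluster and Thbs1 among those of the Cxcl9 monocyte-derived-like cells. A group of 3 sub-clusters recurred at the top for the enzymes and Inhba. These were the inflammatory macrophage-like cells (Spp1, Cxcl3), the interferon-gene cluster led by Rsad2 and Cmpk2, and the heat-shock cluster led by Hspa1b and Hspa1a. Heat-shock transcripts also rise in handled or dissociated cells, and their part in the levels of that cluster was not tested. The monocyte-like cells (Stxbp6, Ifitm6) were at the other end for Nos2, Inhba and Acod1.

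Nos2 was at 597 CPM in the Rsad2 Cmpk2 cluster of Untreated, 732 in STING agonist, 605 in LTbR agonist and 601 in STING and LTbR agonist. In inflammatory macrophage-like cells it was at 371, 669, 483 and 662 CPM. The Hspa1b Hspa1a cluster ranged from 482 to 960 CPM. The ranges of these sub-clusters overlapped, so their order is not settled. At clustering resolution 0.5 the cluster with the highest Nos2 and the Rsad2 Cmpk2 cluster shared 2.14% of the cells of the smaller of them. At resolution 2 the value was 40.2%. Monocyte-like cells had 3, 0, 1 and 7 Nos2 UMIs, among 165, 78, 266 and 138 cells.

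Inhba stood at 1388 CPM in the Hspa1b Hspa1a cluster of Untreated, 1902 in STING agonist, 1034 in LTbR agonist and 1374 in STING and LTbR agonist. The inflammatory macrophage-like cells had 738, 967, 1176 and 1310 CPM, above that cluster in LTbR agonist, and the Rsad2 Cmpk2 cluster had 708, 853, 1005 and 972 CPM. These ranges overlapped, so their order is not settled. At clustering resolution 2 the cluster with the highest Inhba and the Hspa1b Hspa1a cluster shared 1.31% of the cells of the smaller of them. In the inflammatory sub-cluster 72.6% of cells had an Inhba UMI in Untreated and 87.4% in STING and LTbR agonist (41.4% and 50.5% at 1000 UMIs per cell). This sub-cluster was 4.70% to 9.68% of the class and held 15.3% to 33.8% of its Inhba UMIs.

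Acod1 within the class was highest in the Rsad2 Cmpk2 cluster, at 563 CPM in Untreated, 572 in STING agonist, 425 in LTbR agonist and 503 in STING and LTbR agonist. This cluster alone held 35.7% to 43.9% of the Acod1 UMIs of the class. The next sub-cluster, led by Hspa1b and Hspa1a, ranged from 215 to 435 CPM and overlapped it only at its top value. Ptgs2 was more even, with 445 to 857 CPM in the Rsad2 Cmpk2 cluster, 572 to 698 CPM in inflammatory macrophage-like cells and 469 to 691 CPM in the heat-shock cluster.

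Slc7a11 was highest in the cluster led by Psd3 and Lrmda, at 847 CPM in Untreated, 692 in STING agonist, 966 in LTbR agonist and 952 in STING and LTbR agonist. In inflammatory macrophage-like cells it was at 562, 606, 615 and 706 CPM, a range that overlapped the first and lay above the Rsad2 Cmpk2 cluster (391 to 519 CPM). The Psd3 Lrmda cells had median depths of 3064 to 3944 UMIs, against 7504 to 10356 in the whole class. No listed subset marker was among the 10 leading genes of that cluster. Thbs1 had a different order. By median it was highest in the Cxcl9 monocyte-derived-like cells (Timp1, Dmkn), at 2261 CPM in Untreated, 2314 in STING agonist, 1451 in LTbR agonist and 947 in STING and LTbR agonist. The monocyte-like cells, low in Nos2 and Inhba, had 1177, 1586, 956 and 646 CPM of Thbs1. The ranges overlapped, and in STING and LTbR agonist the Retnla Lyz1 cells (1202 CPM) stood above the Cxcl9 monocyte-derived-like cells.

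Il6 was scattered. It was highest by median in the resident macrophage-like cells led by Retnla and Lyz1, at 60.5 CPM in Untreated, 14.2 in STING agonist, 148 in LTbR agonist and 77.5 in STING and LTbR agonist. These values rest on 19, 2, 103 and 44 UMIs in cells with median depths of 1798 to 2130 UMIs. Of the markers behind their name, 1 was among their 10 leading genes. At clustering resolution 0.5 the cluster with the highest Il6 and these cells shared 42.9% of the cells of the smaller of them. The value was 50.9% at resolution 2 and 2.87% with members and partner lists allowed among the variable genes. In the other resident macrophage-like sub-cluster (Ccl8, Cd81) of STING and LTbR agonist, 108 UMIs came from 14 of 178 cells, and they were 32.1% of all Il6 UMIs of the class there. In the whole class 10 cells carried 48.2% of the Il6 UMIs of STING and LTbR agonist, and 18.8% to 32.7% in the other libraries. Il12a was highest by median in the Rsad2 Cmpk2 cluster, with 20, 11, 17 and 20 UMIs.

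**Figure D2:**
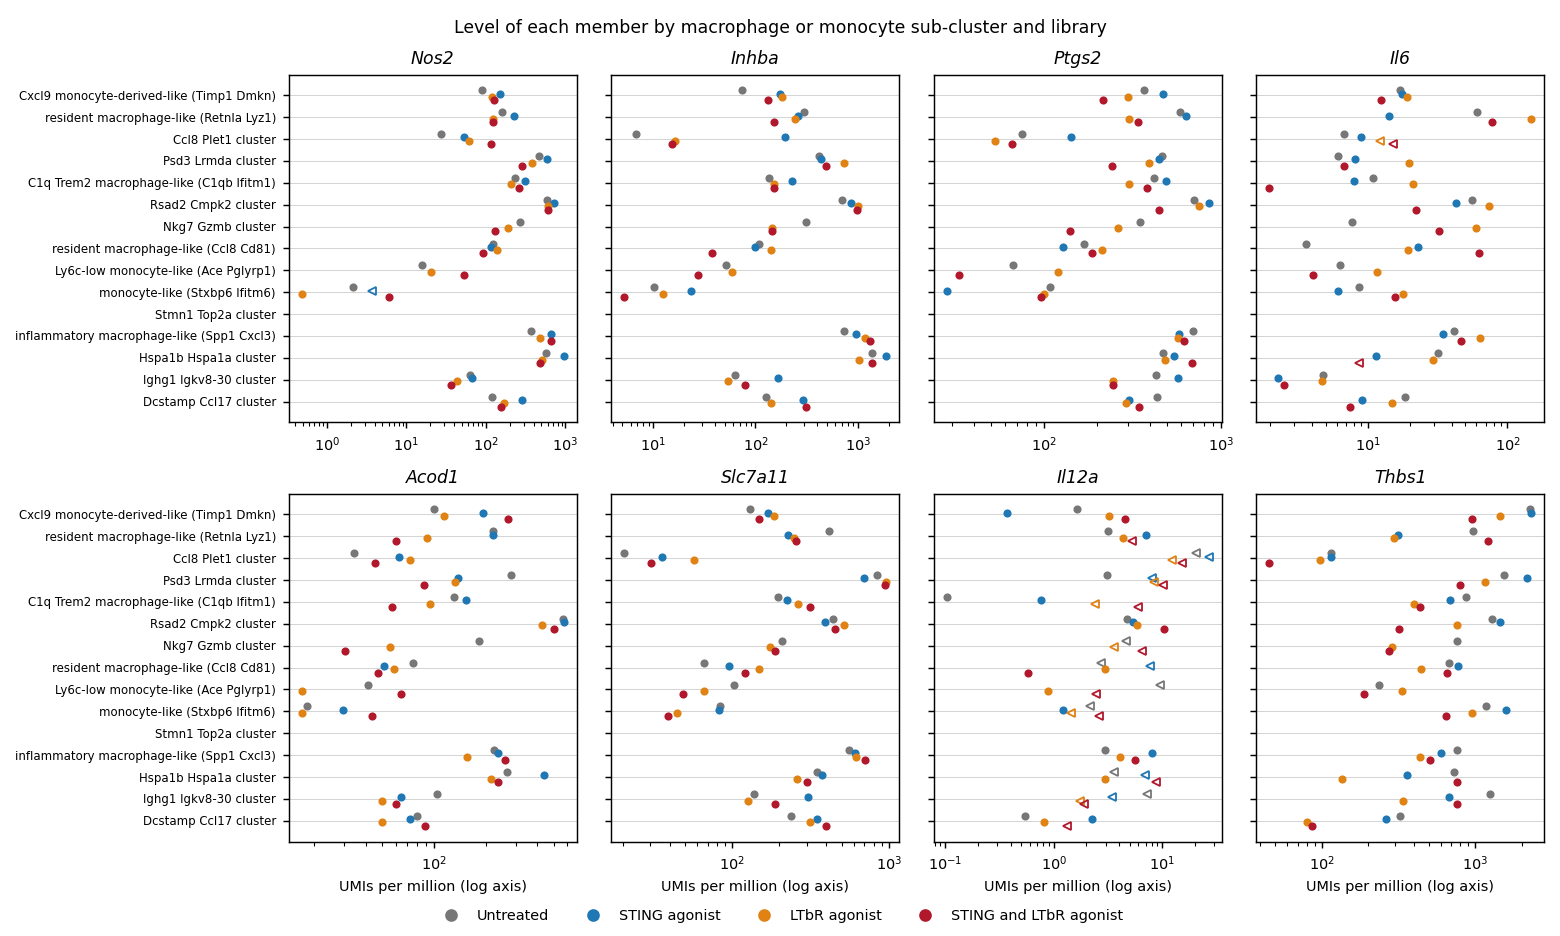
Level of each member in CPM (log axis) by sub-cluster of the macrophage- or monocyte-like cells. Each point is 1 library with at least 30 cells in that sub-cluster, and open triangles mark 0 UMIs, drawn at the level of 3 UMIs. Nos2, Inhba and Acod1 are high in the Rsad2 Cmpk2, inflammatory macrophage-like and Hspa1b Hspa1a cells and low in monocyte-like cells, whereas Thbs1 is highest by median in Cxcl9 monocyte-derived-like cells, at 947 to 2314, a range that overlaps those of other sub-clusters.

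The likeness of the members was described over 58 sums of cells, each a sub-cluster of 1 library or its neutrophil-like cells. Nos2 and Inhba ranked alike (Spearman's rho = 0.857), as did Acod1 and Ptgs2 (rho = 0.865) and Ptgs2 and Slc7a11 (rho = 0.814). Of all 10203 genes compared, Vegfa, a hypoxia-responsive vascular growth factor, was most like Nos2 (rho = 0.887), followed by A930007I19Rik (0.88) and Inhba. Inhba was most like Nos2, then Basp1 (0.843) and Fmnl2 (0.841). Ptgs2 was closest to Grina (0.894), Ccrl2 (0.876) and Mirt2 (0.873).

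Acod1 was closest to Il1rn (0.926), the interleukin-1 receptor antagonist, then Cd274 (0.891), which encodes PD-L1, and Ptgs2. Slc7a11 was closest to Nlrp3 (0.946), the inflammasome sensor, Pla1a (0.895) and Tlr4 (0.895). Thbs1 had no partner above 0.768, with Tnfaip6 (0.768), Gm13986 (0.765) and Aff1 (0.753) the nearest. Its rho with Nos2 was 0.0205. Il6 was closest to Sdc3 (0.682), Dok2 (0.652) and Scd2 (0.647), and Il12a had too few UMIs to be ranked. The sums share libraries and the neutrophil-like cells, and no p-value is given.

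Pairs of members were also compared in single cells. A pair counted as found together where the second gene was in a larger share of cells with the first than of cells without it. Of the 28 pairs of members, 24 were found together in all 4 libraries. The 4 other pairs all contained Thbs1. Cells with a UMI of a member were deeper, so cells were also thinned to 1000 UMIs each, which left 18 pairs. Of the 10 pairs then outside, 6 contained Thbs1, and the others were Il12a with Acod1, Il6 and Slc7a11, and Il6 with Nos2. Slc7a11 with Thbs1 went from 4 of 4 libraries to 0 of 4. The 18 pairs include Il12a with Inhba, Nos2 and Ptgs2. These rest on 3, 3, 5 and 5 thinned cells with an Il12a UMI in Untreated, STING agonist, LTbR agonist, and STING and LTbR agonist. The same count was not made for pairs of other genes.

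At 1000 UMIs, Inhba was detected in 32.7% of the cells with Nos2 in Untreated against 12.4% of those without, in 35.0% against 14.5% in STING agonist, in 42.6% against 13.8% in LTbR agonist, and in 41.4% against 9.91% in STING and LTbR agonist. The intervals of the 2 shares were apart in every library. Slc7a11 was likewise more frequent in cells with Inhba, at 33.3% to 42.2% against 15.2% to 17.3% in cells without it. Thbs1 went the other way with Acod1. It was detected in 35.9% of cells with Acod1 and 42.2% of cells without in Untreated, 37.2% and 38.4% in STING agonist, 20.2% and 24.8% in LTbR agonist, and 19.5% and 25.3% in STING and LTbR agonist. Those differences were small, and only in Untreated did the interval for cells with Acod1 (31.2% to 40.8%) exclude the share in cells without. Thbs1 and Ptgs2 occurred together, at 29.3% to 46.1% against 22.8% to 39.4%.

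**Figure D3:**
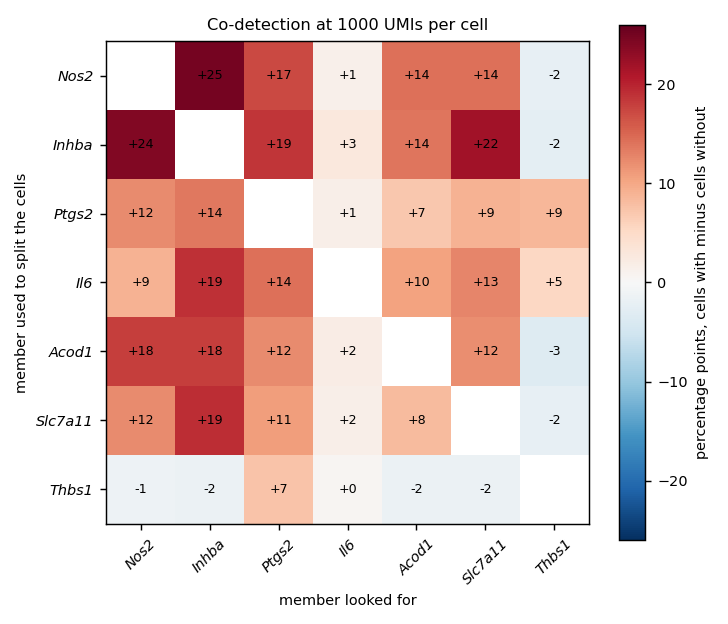
Co-detection of 7 members in macrophage- or monocyte-like cells of all 4 libraries, each thinned to 1000 UMIs. Color and number give the percentage of cells with the column's gene among cells with the row's gene, minus that among cells without it, in percentage points. Nos2 and Inhba have the largest differences of the pairs shown, 37.5% against 12.6%, and Thbs1 is near 0 or negative with all but Ptgs2 and Il6.

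Libraries were then compared within the macrophage- or monocyte-like class. A gene with at least 50 UMIs in 1 of the 2 libraries was counted as changed where its levels differed by at least 2-fold. Among the members, that size was reached by Thbs1 alone. The comparisons share libraries, so their values are not independent. The Nkg7 Gzmb and Ighg1 Igkv8-30 clusters, led by T cell and antibody genes, are part of the class. So is the Dcstamp Ccl17 cluster, with the listed dendritic markers Ccl17 and Mgl2 among its leading genes. That cluster was 4.51% of the class in Untreated, 4.41% in STING agonist, 9.64% in LTbR agonist and 9.44% in STING and LTbR agonist. Its Thbs1 levels were 80.9 to 324 CPM, and its part in the class values was not tested. The makeup of the class also differed in C1q Trem2 macrophage-like cells. They were 30.4% of the class in Untreated and 27.4% in STING agonist but 3.96% in LTbR agonist and 2.27% in STING and LTbR agonist. Median depths of the class were 8601, 10356, 7762 and 7504 UMIs in that order.

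Thbs1 stood at 1137 CPM in Untreated, 1100 in STING agonist, 547 in LTbR agonist and 516 in STING and LTbR agonist. The libraries with the lymphotoxin-β receptor agonist were thus low and the other 2 high. The level in LTbR agonist was 0.481 times that in Untreated (0.472 to 0.491), in STING and LTbR agonist 0.454 times (0.443 to 0.465), and in STING agonist 0.967 times (0.949 to 0.985). The share of cells with a UMI was 64.5%, 62.8%, 43.4% and 41.1%, and at 1000 UMIs per cell 41.4%, 38.2%, 24.3% and 24.7%. In T-like cells the share was at most 2.32%.

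The lower Thbs1 was seen within most sub-clusters. In LTbR agonist it was lower than in Untreated in 13 of 14 sub-clusters, with 12 intervals below 1, a median ratio of 0.580 and the Ly6c-low monocyte-like cells (1.41) as the exception. Of all genes with 50 UMIs, 1.86% were lower in as many. In STING and LTbR agonist it was lower in 12 of 14, with a median ratio of 0.534 and the Retnla Lyz1 (1.24) and Hspa1b Hspa1a cells (1.04) as exceptions, as were 4.15% of genes. In the Rsad2 Cmpk2 cluster Thbs1 was at 1291 CPM in Untreated, 1447 in STING agonist, 760 in LTbR agonist and 319 in STING and LTbR agonist, so that the last was 0.247 times Untreated (0.227 to 0.268). With each sub-cluster given equal weight the ratios to Untreated were 0.553 for LTbR agonist and 0.589 for STING and LTbR agonist, short of 2-fold. The LTbR agonist ratio was 0.502 without the Nkg7 Gzmb, Ighg1 Igkv8-30 and Stmn1 Top2a clusters, and also short of 2-fold under 5 other settings, so the call at 2-fold is not stable while the direction was the same in all. Neutrophil-like cells had ratios of 0.611 (0.562 to 0.665) and 0.584 (0.494 to 0.687), the latter from 27 cells with a UMI.

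Inhba was at 285 CPM in Untreated, 393 in STING agonist, 438 in LTbR agonist and 345 in STING and LTbR agonist. By summed CPM, Untreated was lowest and LTbR agonist highest. The ratios to Untreated were 1.38 (1.33 to 1.43) for STING agonist, 1.54 (1.49 to 1.58) for LTbR agonist and 1.21 (1.17 to 1.25) for STING and LTbR agonist. This order depended on the measure. With equal weight per sub-cluster the ratios were 1.38 over 12 sub-clusters, 1.15 over 14 and 1.17 over 14, so they do not rest on the same sub-clusters. By the share of cells with a UMI at 1000 UMIs they were 1.19, 1.17 and 0.854, and STING agonist was highest in both. Inhba in STING agonist was above Untreated in 10 of 12 sub-clusters, as were 4.98% of genes, in LTbR agonist in 10 of 14 (17.2% of genes) and in STING and LTbR agonist in 8 of 14 (41.1% of genes). In the Cxcl9 monocyte-derived-like cells it was at 74.3 CPM in Untreated, 176 in STING agonist, 180 in LTbR agonist and 133 in STING and LTbR agonist, and Untreated was lowest in the inflammatory macrophage-like cells too, where STING and LTbR agonist was 1.78 times it (1.64 to 1.92).

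Nos2 was at 258 CPM in Untreated, 348 in STING agonist, 252 in LTbR agonist and 214 in STING and LTbR agonist. Only STING agonist stood apart upward, at 1.35 times Untreated (1.30 to 1.40), and it was higher in 10 of 12 sub-clusters, as were 4.98% of genes. By the share of cells with a UMI at 1000 UMIs this ratio was 1.25. STING and LTbR agonist was 0.615 times STING agonist (0.589 to 0.642). Within the inflammatory macrophage-like cells, however, STING and LTbR agonist was 1.79 times Untreated (1.60 to 1.99) and within the Rsad2 Cmpk2 cluster 1.01 times (0.939 to 1.08).

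Ptgs2 was at 442 CPM in Untreated, 497 in STING agonist, 362 in LTbR agonist and 282 in STING and LTbR agonist. It was lowest with both agonists, at 0.638 times Untreated (0.617 to 0.661) and 0.568 times STING agonist (0.547 to 0.589). In STING and LTbR agonist it was below Untreated in 12 of 14 sub-clusters, as were 4.15% of genes.

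Acod1 was at 192 CPM in Untreated, 209 in STING agonist, 129 in LTbR agonist and 160 in STING and LTbR agonist. LTbR agonist was lowest, at 0.671 times Untreated (0.642 to 0.701), and was lower in 12 of 14 sub-clusters, as were 4.25% of genes. With both agonists the direction differed by sub-cluster. In the Cxcl9 monocyte-derived-like cells Acod1 was at 99.8 CPM in Untreated, 193 in STING agonist, 115 in LTbR agonist and 270 in STING and LTbR agonist, the last 2.70 times Untreated (2.38 to 3.07). In C1q Trem2 macrophage-like cells it was at 131, 153, 95.2 and 57.3 CPM, lowest with both.

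Slc7a11 had the smallest ratio of highest to lowest library among the 8 members, at 254 CPM in Untreated, 281 in STING agonist, 294 in LTbR agonist and 273 in STING and LTbR agonist. Its ratios to Untreated were 1.11, 1.16 and 1.08.

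Il6 was at 21.4 CPM (19.7 to 23.2) in Untreated, 18.0 (15.9 to 20.2) in STING agonist, 35.4 (33.1 to 37.8) in LTbR agonist and 21.8 (19.5 to 24.3) in STING and LTbR agonist. LTbR agonist stood above the other 3, at 1.65 times Untreated (1.49 to 1.84). It was higher than Untreated in 10 of 14 sub-clusters, as were 17.2% of genes. STING and LTbR agonist was 0.615 times LTbR agonist (0.541 to 0.698), and 0.394 times without the 10 cells of each library that had the most Il6 UMIs. Il12a was at 1.35 CPM (0.952 to 1.85) in Untreated, 1.92 (1.29 to 2.74) in STING agonist, 2.30 (1.75 to 2.98) in LTbR agonist and 2.27 (1.58 to 3.16) in STING and LTbR agonist. The intervals of the levels overlapped, although those of the ratios to Untreated lay above 1 for LTbR agonist (1.12 to 2.65) and STING and LTbR agonist (1.04 to 2.75). Without the 10 cells that had the most Il12a UMIs, its ratio of STING agonist to Untreated went from 1.43 to 0.345. Of the 3 members with the NF-κB-type letters, Acod1 was lowest and Il6 highest in LTbR agonist, and the level intervals of Il12a overlapped in all libraries.

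**Figure D4:**
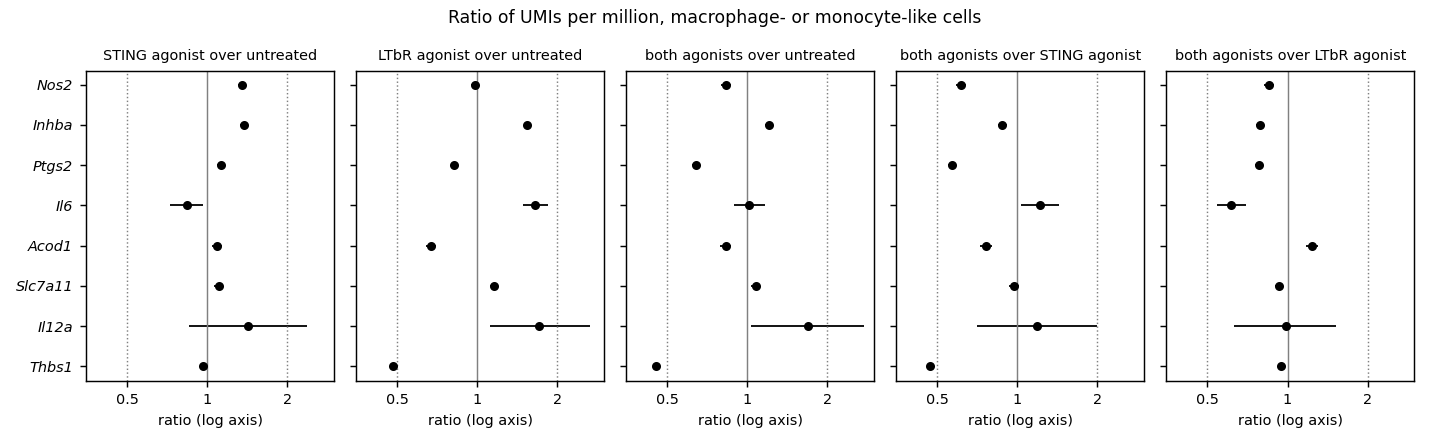
Ratio of CPM between libraries for each member in macrophage- or monocyte-like cells (log axis), with exact 95% intervals and dotted lines at 2-fold. Thbs1 lies past the lower line in LTbR agonist over untreated (0.481), both agonists over untreated (0.454) and both agonists over STING agonist (0.469), and no other member lies past either line.

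Il12a had under 50 UMIs in both libraries of 3 comparisons, which leaves 7 members there. In STING agonist over Untreated, 0 of the 7 were 2-fold higher and 0 were 2-fold lower, beside 0.227% and 0.806% of all 10552 such genes. In LTbR agonist over Untreated, 0 of 8 were higher and 1 was lower, beside 1.88% and 0.567% of genes. In STING and LTbR agonist over Untreated, 0 of 7 were higher and 1 lower, beside 2.39% and 1.11%. Against STING agonist, the combination had 0 of 7 higher and 1 lower, beside 2.55% and 0.816%. Against LTbR agonist it had 0 of 8 higher and 0 lower, beside 0.591% and 0.762%. The median log2 ratio of the members was 0.15, 0.09, -0.27, -0.39 and -0.17 in these 5 comparisons, and that of all genes 0.01, 0.02, 0.05, 0.04 and 0.03. In the combination 40.2% of cells showed at least 3 members, against 58.3% in Untreated, 65.6% in STING agonist and 48.5% in LTbR agonist (10.1%, 15.9%, 18.7% and 14.2% at 1000 UMIs). The members differed in this. At 1000 UMIs, Thbs1 was detected in 41.4% of cells in Untreated and 24.7% in the combination. For Ptgs2 the shares were 29.2% and 17.3%, and for Slc7a11 18.5% and 18.8%. The part of each member in the count was not tested, and no such count was made for other genes.

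**Figure D5:**
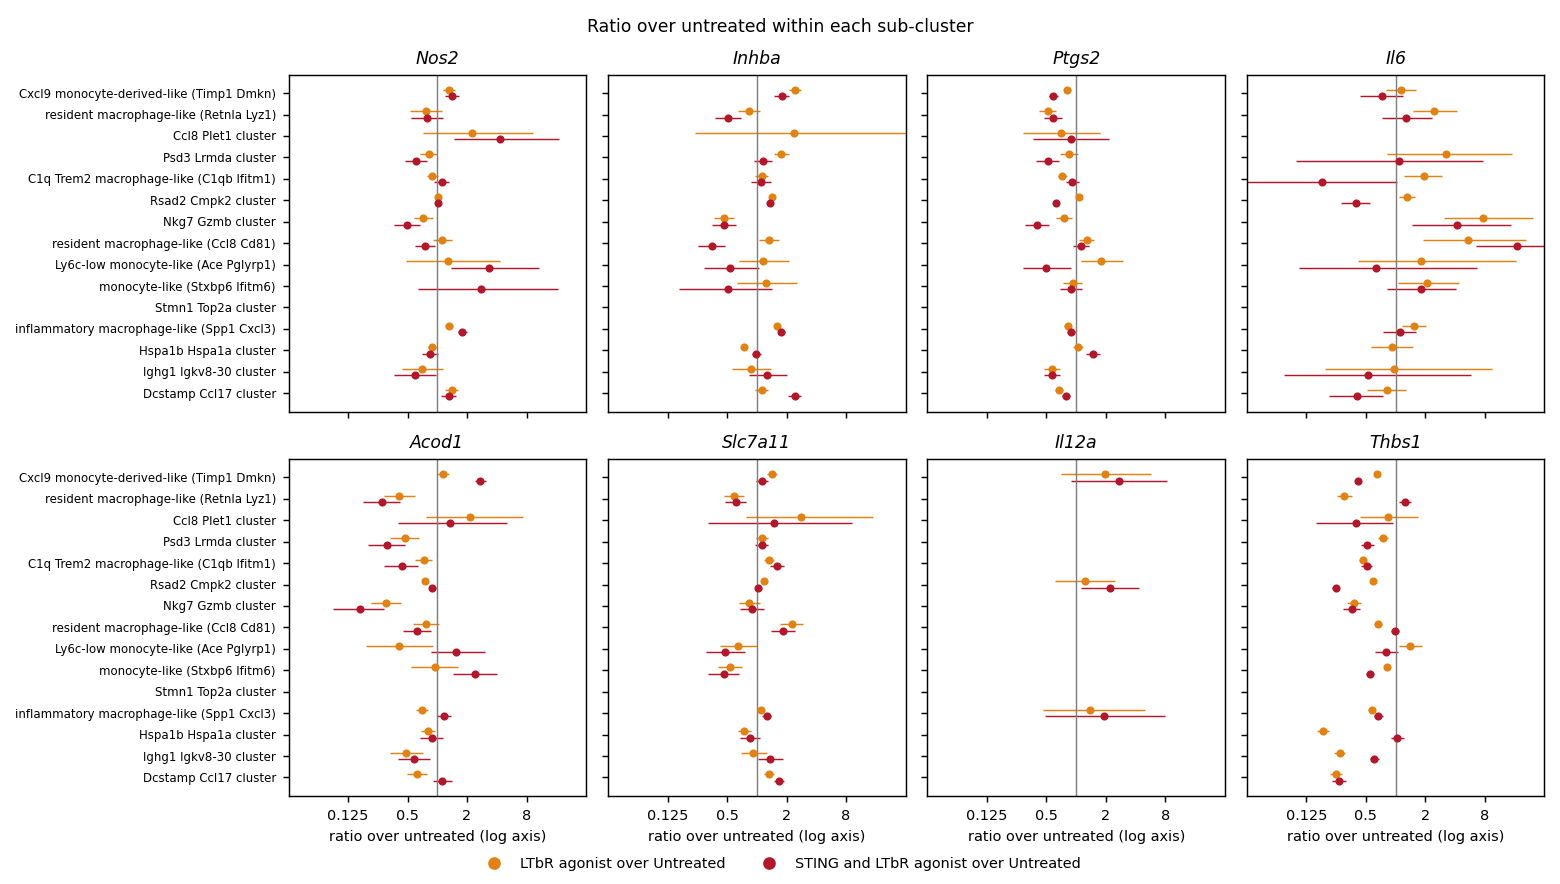
Ratio to the untreated library within each sub-cluster (log axis) for the LTbR agonist and for both agonists, with exact 95% intervals; sub-clusters with fewer than 30 cells in either library or with 0 UMIs are not drawn. Thbs1 points lie mostly left of 1, from 0.185 to 1.41 for the LTbR agonist, and Acod1 points lie on both sides for both agonists, from 0.166 to 2.70.

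Genes that work with the members were counted in 10 lists, for STING and LTbR agonist over Untreated. The class and the 2-fold rule among genes with 50 UMIs were the same. Of all such genes in this comparison, 2.39% were higher and 1.11% lower. Of the nitric oxide and arginine genes, 0 of 12 were higher and 0 lower. The arginine importer Slc7a2 had 96.1 CPM in Untreated, 144 in STING agonist, 163 in LTbR agonist and 190 in STING and LTbR agonist and the other arginine importer Slc7a1 19.5, 17.1, 28.5 and 31.9 CPM. Nosip was at 28.0 and 20.2 CPM and the mitochondrial arginase Arg2 at 47.4 and 28.9 CPM in Untreated and the combination.

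Of the prostaglandin and related lipid genes, 2 of 13 were higher and 0 lower. Hpgd, which inactivates prostaglandins, was at 7.15 CPM in Untreated, 7.60 in STING agonist, 16.1 in LTbR agonist and 26.9 in STING and LTbR agonist. The leukotriene enzyme Alox5 was at 1.42, 1.28, 3.18 and 7.14 CPM. The 2 lowest ratios of the list, for which these genes are named, were those of the phospholipase Pla2g4a and the synthase Ptges. The combination had 0.718 times the Untreated level of Pla2g4a (108 and 150 CPM) and 0.685 times that of Ptges (6.62 and 9.66 CPM). The median log2 ratio of the 13 genes was -0.07.

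Among the thrombospondin receptors and partners, for which no count is given, Cd36, a receptor of thrombospondin-1, was at 11.7 CPM in Untreated, 11.1 in STING agonist, 21.4 in LTbR agonist and 36.3 in STING and LTbR agonist, while its ligand Thbs1 was low in the last 2. Ly6c-low monocyte-like cells were 1.87% of the class in Untreated, 1.94% in STING agonist, 7.15% in LTbR agonist and 11.6% in STING and LTbR agonist. Cd36 was among the 10 leading genes of that sub-cluster, and both Cd36 and Hpgd were among those of the cluster led by Ace and Adgre4 when all cells were clustered. The part of these cells in the Cd36 and Hpgd values was not tested. Cd47, the other main receptor, was at 462, 457, 409 and 416 CPM, and Itgav at 89.7 and 79.0 CPM in Untreated and the combination.

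The activin and TGF-β list had 0 of 12 genes past 2-fold in either direction and a median log2 ratio of 0.02. The activin receptor Acvr2a was at 34.5 and 42.0 CPM in Untreated and the combination, Smad2 at 33.5 and 37.0, the inhibitor Smad7 at 91.4 and 68.0 and the corepressor Skil at 255 and 205. The IL-6 family list also had 0 of 8 in either direction. Osm, a cytokine of that family, was at 640 and 367 CPM, the receptor chains Il6ra at 98.9 and 115 and Il6st at 35.0 and 42.6, and the feedback inhibitor Socs3 at 430 and 336. Of the IL-12 family, 1 of 6 was higher and 0 lower. Il12b, the p40 chain that pairs with p35, had 42 UMIs in Untreated, 5 in STING agonist, 5 in LTbR agonist and 57 in STING and LTbR agonist, or 1.49, 0.320, 0.199 and 3.70 CPM. Il23a, the partner of p40 in IL-23, was highest in LTbR agonist (18, 10, 57 and 4 UMIs). Il12rb2 was at 15.1 and 23.5 CPM and Il12rb1 at 6.33 and 4.22 CPM in Untreated and the combination.

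The cystine, glutathione and NRF2 list, around Slc7a11, had 0 of 13 genes past 2-fold. Gclc, which makes the first step of glutathione synthesis, was at 18.3 and 27.8 CPM in Untreated and the combination, Gss at 5.84 and 8.24, Hmox1 at 156 and 122 and Srxn1 at 26.9 and 21.0. The NF-κB and cytokine list had 0 of 18 in either direction, with Nfkb2 at 57.2 and 87.7 CPM, Rel at 152 and 219, Ccl4 at 501 and 303 and Ccl3 at 123 and 69.0. Nfkb2 encodes the p100 precursor of the noncanonical pathway that the lymphotoxin-β receptor is known to engage. It was also at 71.4 CPM in STING agonist and 67.4 CPM in LTbR agonist, and the source of the difference was not tested. Of the hypoxia genes, 1 of 14 was higher. Adm, the vasodilator adrenomedullin, was at 1.27 CPM in Untreated, 1.21 in STING agonist, 8.98 in LTbR agonist and 3.83 in STING and LTbR agonist, while Ndrg1 was at 149 and 183, Hilpda at 328 and 256 and Vegfa at 598 and 467 CPM in Untreated and the combination. Of the interferon genes, 0 of 14 were past 2-fold. Cxcl9 was at 341 CPM in Untreated, 548 in STING agonist, 240 in LTbR agonist and 533 in STING and LTbR agonist, Irf1 at 235, 310, 181 and 307, Irf7 at 488 and 376 in Untreated and the combination, and Rsad2 at 396 and 265.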

How the data were processed

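The authors mapped droplet reads to mm10 with Cell Ranger 7.1.0 (per the labels) and deposited raw UMI counts of 24839 barcodes in 4 libraries, told apart by the barcode suffix. No normalization had been applied. The members, partner lists and markers were chosen with earlier results of these data known. Cells with 300 to 5000 genes and at most 6% mitochondrial UMIs were kept (23011 cells). Counts were scaled to 10000 UMIs per cell and clustered with scanpy 1.11.5 (2000 variable genes without members and partner lists, 30 components, 20 neighbours, Leiden resolution 1), and macrophage- or monocyte-like clusters were clustered again. Clusters were named from listed markers with limits set after the clusters were seen. Of 27 clusters, 1 mixed T and macrophage cluster was left unnamed, and doublets were kept. UMIs were summed per class and library. Poisson, Clopper-Pearson and conditional binomial intervals were exact (95%), and ratios were tested on simulated data. A count of 0 was set at 3 UMIs in plots of levels and in ratios. Named partner genes are the 2 highest and 2 lowest ratios of each list, combination over Untreated, among genes with 50 UMIs in at least 1 library, and the 3 most similar genes had at least 200 UMIs over all sums. A result of the thrombospondin list is not reported here, and neither is that list's count.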

Additional observations from a re-analysis of the deposited data

How the results depend on the processing

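No paired analysis was possible because each group is 1 library. Of 440 member ratios recomputed under 11 alternatives, 280 stayed within the counting interval, 160 moved outside it and 0 reversed a change of 2-fold. The count of members at 2-fold went from 1 to 0 for LTbR agonist over Untreated by mean CPM per cell, without cells carrying markers of 2 classes, with classes from marker scores (strict or loose cell filter), by share of cells at 1000 UMIs, with equal weight per sub-cluster and without the Nkg7 Gzmb, Ighg1 Igkv8-30 and Stmn1 Top2a sub-clusters (chosen after seeing the data); the Thbs1 ratio was then 0.502 to 0.588. It went from 1 to 0 for both agonists over Untreated and over STING agonist at 1000 UMIs (0.597 and 0.646) and with equal weights (0.589 and 0.634), and over STING agonist by mean CPM per cell (0.507). For both agonists over LTbR agonist it went from 0 to 1 (Il6) without the 10 cells richest in the gene. The cause was not tested. At resolution 2, 4 of 8 members kept their highest sub-cluster, by at least 50% of the smaller cluster's cells. Low depth limits Il12a, Il6 in sub-clusters and all values in the 68 neutrophil-like cells of the combination.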
